A study of Mus musculus with 11 samples.

Results

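The accessible regions around 3 genes through which mesenchymal bone cells control osteoclasts, Tnfsf11, Tnfrsf11b and Csf1, were described from the pooled region list of an ATAC-seq experiment in mouse cells. A region belonged to a gene when it overlapped the stretch from 200 kb upstream of the gene to 20 kb past its end. By this rule 78 of the 94963 listed regions were members, 25 at Tnfsf11, 11 at Tnfrsf11b and 42 at Csf1, and no region fell in more than 1 of the stretches. ATAC-seq marks open chromatin by the places where the Tn5 transposase cuts and inserts adapters. The cells were MPC2, a conditionally immortalised mouse mesenchymal progenitor line grown from 1 clone, so cultures of it were not separate animals. Undifferentiated cells (MSC) gave 3 cultures on DMSO vehicle and 3 on FG-4592, and osteocytes, obtained over 3 weeks of differentiation, gave 2 on DMSO and 3 on FG-4592. Treatment lasted 48 hours, and FG-4592 (Roxadustat), which blocks the prolyl hydroxylases that mark HIF proteins for breakdown, was used at 50 uM. The list joined all 11 cultures and gave 1 level per region, so no value could be given per culture, no error between replicates could be measured, and drug or differentiation effects at these genes were not compared.

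Osteoclasts, the cells that resorb bone, form from blood-lineage precursors under signals from osteoblasts, osteocytes and stromal cells. Tnfsf11 encodes RANKL, the ligand that drives precursors to become osteoclasts through the receptor RANK. Tnfrsf11b encodes osteoprotegerin (OPG), a secreted decoy receptor that binds RANKL and keeps it from RANK. Csf1 encodes M-CSF, the growth factor that keeps the precursors alive and dividing. Enhancers far upstream of Tnfsf11 are known to respond to vitamin D and parathyroid hormone, and osteocytes are a major source of RANKL in adult bone.

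The sequences below show the stretch just upstream of each gene's start and 300 bases from distal regions of high level, so that the presence or absence of an accessible region can be read beside the letters. All are mm10 (GRCm38) and are written 5′ to 3′ on the minus strand, which is the sense strand of all 3 genes. Capitals mark every match to 1 of 12 motifs searched on both strands, and distances in names are from the gene's start to the middle of the region, negative upstream. The Tnfsf11 promoter stretch is chr14:78308044-78308293 and lay outside every listed region. The Tnfrsf11b stretch is chr15:54278485-54278734 and the Csf1 stretch is chr3:107760470-107760719. The distal stretches are chr14:78330252-78330551 and chr14:78383297-78383596 upstream of Tnfsf11, chr15:54240796-54241095 past the end of Tnfrsf11b, and chr3:107829805-107830104 upstream of Csf1. RefSeq (GRCm38.p6) placed the starts of Tnfsf11 and Csf1 at the same base as GENCODE. The RefSeq promoters used had no entry for Tnfrsf11b, so its start was not compared.
Tnfsf11 promoter: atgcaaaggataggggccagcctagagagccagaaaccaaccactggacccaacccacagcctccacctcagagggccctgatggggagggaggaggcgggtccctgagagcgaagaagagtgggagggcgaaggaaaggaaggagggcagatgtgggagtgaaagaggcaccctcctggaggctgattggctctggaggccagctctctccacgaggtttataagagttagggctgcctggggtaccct
Tnfrsf11b promoter: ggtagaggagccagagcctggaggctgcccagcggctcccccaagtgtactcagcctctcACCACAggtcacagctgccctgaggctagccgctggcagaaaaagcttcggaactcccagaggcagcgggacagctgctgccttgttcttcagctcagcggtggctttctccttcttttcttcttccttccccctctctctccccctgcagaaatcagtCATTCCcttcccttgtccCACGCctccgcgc
Csf1 promoter: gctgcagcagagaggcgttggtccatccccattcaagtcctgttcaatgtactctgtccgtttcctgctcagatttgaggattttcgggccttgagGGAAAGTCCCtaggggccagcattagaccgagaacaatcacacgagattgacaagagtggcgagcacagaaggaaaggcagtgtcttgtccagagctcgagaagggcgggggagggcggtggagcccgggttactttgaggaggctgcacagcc
Tnfsf11 -22.5 kb: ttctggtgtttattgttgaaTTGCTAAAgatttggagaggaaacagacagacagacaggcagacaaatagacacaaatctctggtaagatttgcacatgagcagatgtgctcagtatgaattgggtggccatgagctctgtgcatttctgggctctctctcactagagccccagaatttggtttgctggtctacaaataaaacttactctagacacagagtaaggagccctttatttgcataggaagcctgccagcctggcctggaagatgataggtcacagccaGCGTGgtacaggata
Tnfsf11 -75.5 kb: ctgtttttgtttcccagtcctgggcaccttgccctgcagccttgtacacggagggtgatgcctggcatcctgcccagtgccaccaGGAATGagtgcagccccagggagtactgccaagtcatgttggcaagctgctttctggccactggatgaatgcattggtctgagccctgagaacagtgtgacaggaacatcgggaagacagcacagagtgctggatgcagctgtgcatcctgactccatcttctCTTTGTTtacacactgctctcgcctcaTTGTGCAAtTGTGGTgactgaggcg
Tnfrsf11b +37.5 kb: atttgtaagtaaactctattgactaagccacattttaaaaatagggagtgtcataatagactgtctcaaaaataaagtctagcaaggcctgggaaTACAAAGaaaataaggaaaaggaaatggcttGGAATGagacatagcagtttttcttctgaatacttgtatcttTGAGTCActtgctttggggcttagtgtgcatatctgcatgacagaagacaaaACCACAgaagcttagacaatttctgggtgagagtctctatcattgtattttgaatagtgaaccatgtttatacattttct
Csf1 -68.7 kb: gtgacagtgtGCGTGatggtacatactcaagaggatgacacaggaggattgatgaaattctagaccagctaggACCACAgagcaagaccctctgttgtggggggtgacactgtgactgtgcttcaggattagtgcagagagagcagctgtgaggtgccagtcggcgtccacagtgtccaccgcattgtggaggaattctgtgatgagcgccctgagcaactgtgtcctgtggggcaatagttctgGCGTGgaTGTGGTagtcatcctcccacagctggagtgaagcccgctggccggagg

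In these letters the Tnfsf11 promoter stretch held none of the 12 motifs. The Tnfrsf11b stretch held a RUNX match, a TEAD match and, close to the start, a core of the hypoxia response element (HRE) read on the other strand. The Csf1 stretch held 1 NF-kB match. Over the same 250 bases upstream of all 21938 protein-coding genes, 13.0% held RUNX, 11.5% TEAD, 42.0% an HRE core and 4.87% NF-kB. The Tnfsf11 -75.5 kb stretch held TEAD, TCF/LEF, C/EBP and RUNX matches, the last 3 between positions 249 and 290 of the stretch, and the -22.5 kb stretch held C/EBP and an HRE core. The Tnfrsf11b +37.5 kb stretch held TCF/LEF, TEAD, AP-1 and RUNX matches, and the Csf1 -68.7 kb stretch held 2 HRE cores and 2 RUNX matches. Each distal stretch was the part of its region with the most matches, so these counts describe the letters printed and are no rate.

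The 3 loci differed in how much accessible chromatin they held. Levels are the pooled average log2 CPM, the Tn5 cuts in a region scaled to the size of the library. The median level was 1.98 at Tnfsf11 (0.30 to 4.94), 2.08 at Tnfrsf11b (1.43 to 4.86) and 2.35 at Csf1 (0.10 to 5.63), against 2.12 over the whole list (-1.11 to 8.40). The loci stood apart more by number than by level. Tnfsf11 had 99.8 regions per Mb of its 251 kb stretch against 30.1 on chromosome 14, Csf1 had 175 per Mb of 239 kb against 25.3 on chromosome 3, and Tnfrsf11b had 44.4 per Mb of 248 kb against 40.8 on chromosome 15. With stretches built the same way around every protein-coding gene, the median gene had 15 regions. Tnfsf11 exceeded 77.2% of genes, Csf1 98.2% and Tnfrsf11b 35.5%. Stretches of neighbouring genes overlap, and a stretch with more genes holds more promoters. Among genes with a like number of protein-coding starts in their stretch (within 1), Tnfsf11 exceeded 87.3%, Csf1 98.0% and Tnfrsf11b 50.1%. In summed level, taken as CPM, Csf1 reached 416, Tnfsf11 205 and Tnfrsf11b 79.1, where the median gene had 176.

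**Figure D1:**
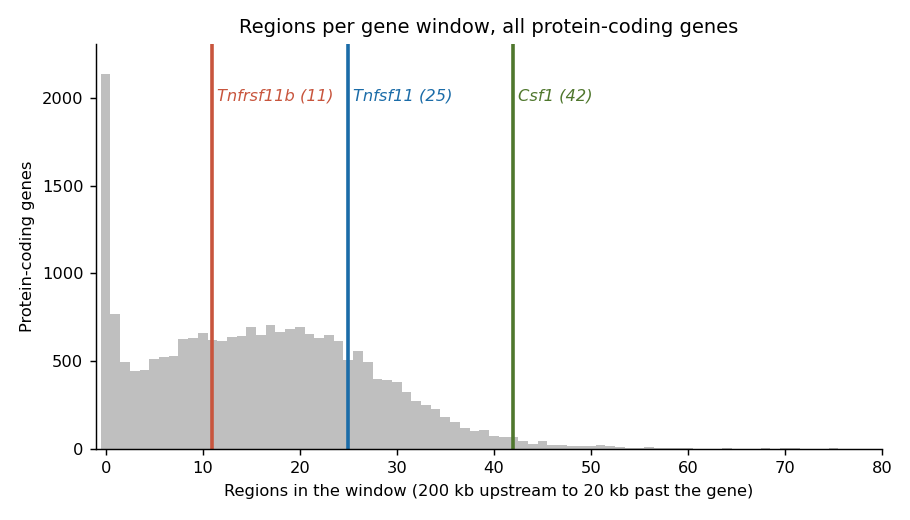
Number of listed regions (x axis) in the stretch from 200 kb upstream of a gene to 20 kb past its end, as a histogram over 21938 protein-coding genes (y axis), with coloured lines at the 3 genes. Tnfrsf11b (11) lies below the median of 15, Tnfsf11 (25) above it and Csf1 (42) in the upper tail, and 5 genes with more than 80 regions lie beyond the axis.

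Wider regions collect more cuts, so each level was also set beside the median of regions of like width, using 20 equal-sized classes of width over the whole list. Of the members, 5 of 25 at Tnfsf11, 2 of 11 at Tnfrsf11b and 25 of 42 at Csf1 lay above that median. The median difference was -0.24 at Tnfsf11, -0.15 at Tnfrsf11b and 0.14 at Csf1 on the log2 scale. Regions at Tnfsf11 and Tnfrsf11b were thus mostly at a lower level than regions as wide as they are, and regions at Csf1 were more often at a higher level. Median widths were 499 bp, 505 bp and 456 bp, against 460 bp over the list. Median GC content was 46.2% at Tnfsf11, 41.9% at Tnfrsf11b and 50.8% at Csf1, against 49.8% over the list.

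**Figure D2:**
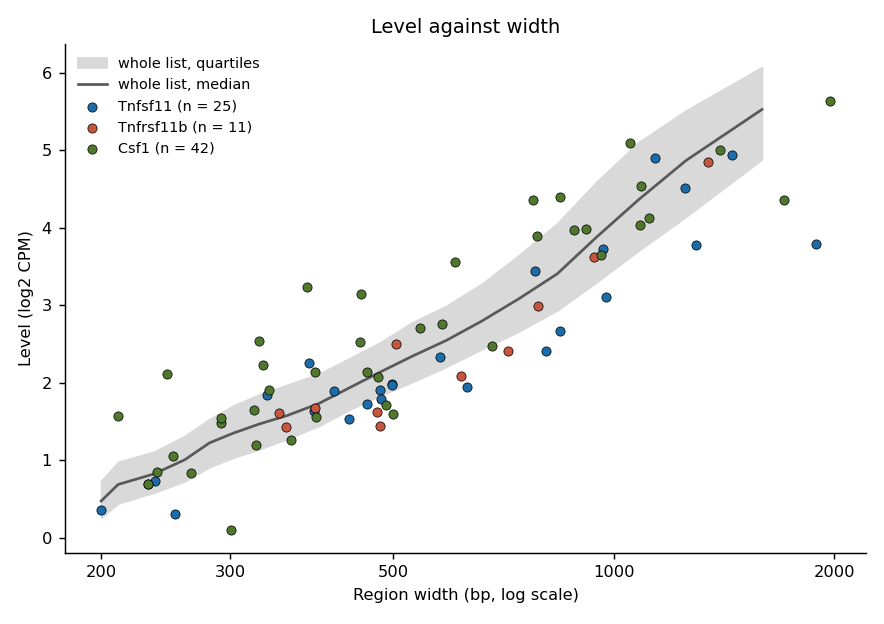
Level of each region (y axis, log2 CPM) against its width (x axis, bp, log scale), with the members of each locus as coloured points over the median (line) and quartiles (band) of the whole list by class of width. Level rose with width over the list, 20 of the 25 Tnfsf11 regions lay under the median of their class, and the 1890 bp region of Tnfsf11 lay at -1.73 from it.

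The ligand gene Tnfsf11 (ENSMUSG00000022015.8) lies at chr14:78277445-78308043. Its start was not covered by any listed region. The nearest region on the gene side ended 897 bp after the start and the nearest on the upstream side began 15323 bp before it, so the start sat in a stretch of 16.2 kb without a region. Regions covered a start at 58.3% of protein-coding genes and came within 1000 bp of one at 64.1%. Tnfsf11 was counted only in the second group, through a region of level 1.94 in its first intron. Both shares take any annotated transcript start of a gene, and Tnfsf11 has 1 annotated transcript. By the outermost start alone, 59.1% of genes had a region within 1000 bp. CpG content around the Tnfsf11 start was moderate, with an observed over expected ratio of 0.56 and 61.2% GC within 500 bp. Of the 1769 genes whose ratio lay within 0.05 of it, 73.2% had a covered start.

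Upstream of Tnfsf11 lay 17 of its 25 regions, which held 79.3% of the summed CPM of the locus. The highest was the -22.5 kb region (chr14:78329822-78331273, 1452 bp) at 4.94. It was at -0.59 from the median of its class of width and higher than 26.8% of such regions. Against regions within 10% of its width it was at -0.27. Nearly the same level, 4.90, was found in the -75.5 kb region (chr14:78382987-78384123, 1137 bp), which stood 0.53 above the median of its width and higher than 67.9% of such regions. Both are intergenic, and Tnfsf11 has the nearest protein-coding start to either. The -15.7 kb region followed the start most closely on that side, at 2.67. Beyond the -22.5 kb region came the longest gap of the locus, 21.7 kb from -23.2 to -44.9 kb, ended by a 200 bp region at 0.36.

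From 50 to 100 kb upstream there were 6 regions, which held 29.6% of the summed CPM, more than any other 1 of the upstream intervals of Tnfsf11. Beside the -75.5 kb region these were -97.7 kb at 1.89, -90.1 kb at 2.25, -68.4 kb at 3.78, -60.0 kb at 2.33 and -55.3 kb at 1.84. Of these 6, 4 lay above the median of their width, and they made up 4 of the 5 such regions of the whole locus. The -68.4 kb region, 1294 bp wide, stood lowest of them against its width, at -1.09 from that median.

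From 100 to 200 kb upstream there were 8 further regions, and all 8 were nearer to an annotated transcript start of Akap11, an A-kinase anchoring protein gene, than to that of Tnfsf11. The start in question belongs to an inner transcript of Akap11, and by the outermost start of each gene the -113.2 kb region was nearer to Tnfsf11, which left 7. The highest in the 100 to 150 kb interval was the -124.2 kb region (chr14:78431293-78433182) at 3.79. At 1890 bp it was the widest of the locus, and its level was higher than only 3.20% of regions of like width. The highest in the 150 to 200 kb interval was the -175.1 kb region (chr14:78482511-78483761) at 4.52. All 8 had a level under the median of their width, by -0.16 to -1.73.

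Within the Tnfsf11 gene, 7 regions lay in introns and none over an exon. Intron 1 held the regions at +1.2 kb and +2.0 kb, at 1.94 and 1.53. Intron 2 held 4, at +10.5 kb (3.73), +13.4 kb (0.73), +17.8 kb (1.73) and +19.7 kb (3.44), and intron 4 held 1 at +25.4 kb (1.79). The +10.5 kb region (chr14:78297024-78297991) carried 4 HRE cores and 4 RUNX matches over its 968 bp, the most HRE cores of any Tnfsf11 region, and the +19.7 kb region carried the only CTCF match of the locus. Past the gene there was 1 region, at +34.2 kb and 1.63.

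Distal regions of a gene's own were taken as those over 1000 bp from any transcript start with that gene as the nearest protein-coding gene. Tnfsf11 had 16, more than 96.9% of genes, Csf1 had 21, more than 98.4%, and Tnfrsf11b had 7, more than 87.3%, where the median gene had 1. These ranks were not matched for neighbouring genes, which limit the count. The stretches held 1 protein-coding start at Tnfsf11, 2 at Tnfrsf11b and 5 at Csf1, the gene's own included. Of other genes of the pathway, Runx2 with 35 and Rxra with 27 had more than any of the 3, and Sema3a with 17 had more than Tnfsf11. The best distal level was 4.94 at Tnfsf11, 4.53 at Csf1 and 3.62 at Tnfrsf11b, which exceeded 91.9%, 86.2% and 68.7% of the 13102 genes with such a region. The best at Tnfsf11 was a wide region with a level under the median of its width. Tnfsf11 was the only 1 of the 3 without a covered start. Among the 9141 genes of that kind, where the median was 0, 16 was more than 99.3% had. Among the 3905 of them with any such region, 4.94 was higher than in 95.9%. These comparisons among genes without a covered start were chosen after the values at Tnfsf11 were seen. With the starts of noncoding genes and pseudogenes counted too, Tnfsf11 was the nearest gene for 7 of its 25 regions. Nearness does not say which gene a region acts on.

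**Figure D3:**
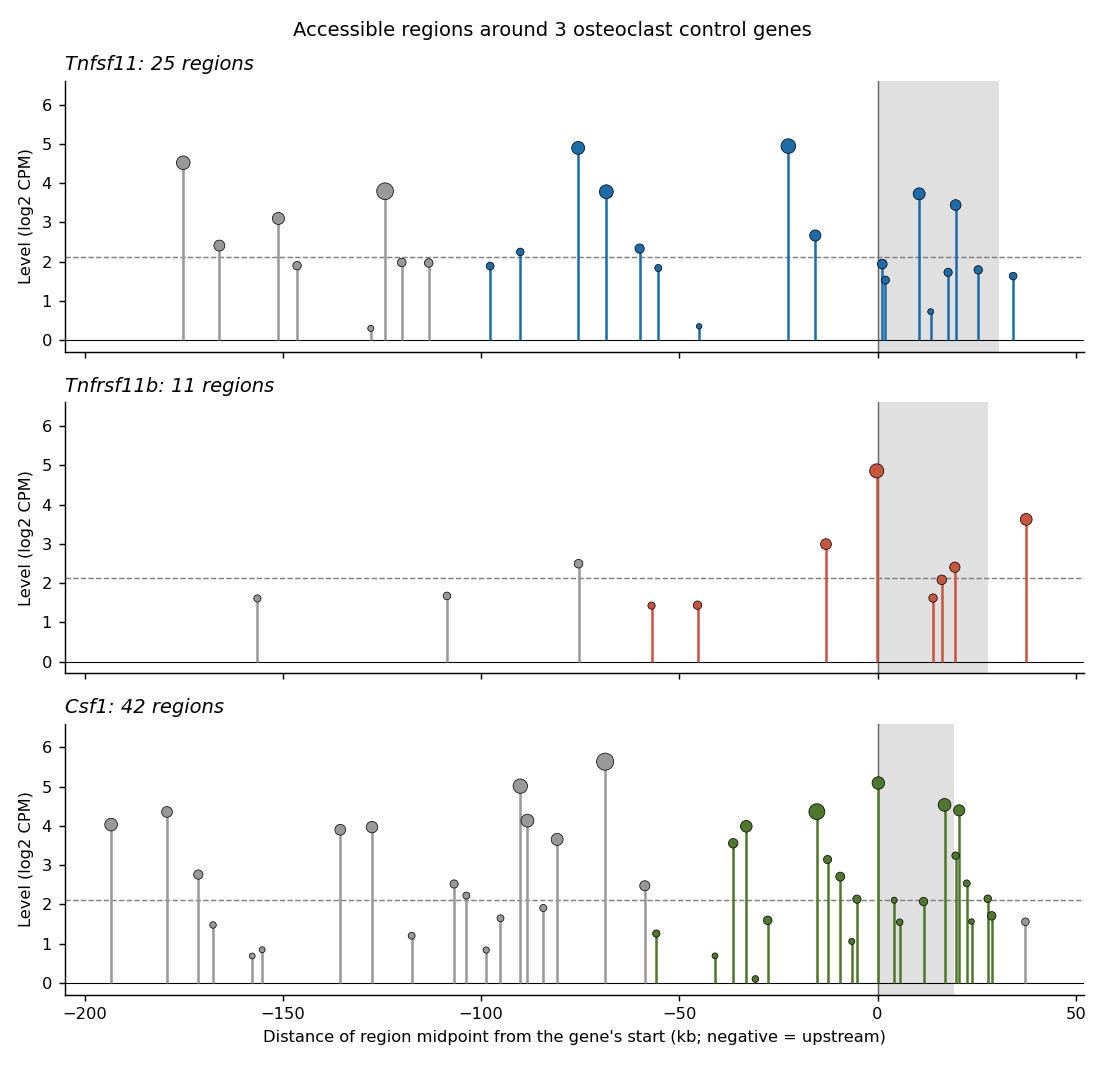
Level of each region (y axis, log2 CPM) by distance from the gene's start (x axis, kb, upstream to the left) at the 3 loci, with the gene body shaded, point area growing with width, and regions nearest to another gene in grey. The tallest Tnfsf11 regions stand at -22.5 and -75.5 kb with none over the start, whereas Tnfrsf11b (4.86) and Csf1 (5.09) each have a tall region over the start, and the dashed line is the list median of 2.12.

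The decoy receptor gene Tnfrsf11b (ENSMUSG00000063727.3) lies at chr15:54250619-54278484 and had the opposite layout. Its start lay inside a region (chr15:54278019-54279363, 1345 bp) that also took in the coding exon 1 and part of intron 1. That region had a level of 4.86 and held 36.6% of the summed CPM of the locus. Among the 12797 genes with a covered start the level was higher than at 40.1%. The CpG ratio around the start was 0.39, and of the 1400 genes with a like ratio 46.6% had a covered start. The region held 3 HRE cores, 1 CRE core and 2 matches each to RUNX, TEAD, TCF/LEF and C/EBP.

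Upstream of Tnfrsf11b there were 6 regions with 31.9% of the summed CPM. Those nearest to Tnfrsf11b were at -13.0 kb (2.99), -45.4 kb (1.44) and -57.0 kb (1.43), and the other 3, at -75.4 kb (2.49), -108.6 kb (1.67) and -156.4 kb (1.61), were nearest to Colec10, a collectin gene, with the last over 1 of its exons. The longest gap between regions was 47.4 kb, from -108.8 to -156.2 kb. Introns of Tnfrsf11b held 3 regions, at +14.0 kb (1.62) and +16.2 kb (2.08) in intron 1 and +19.5 kb (2.40) in intron 2. All 3 lay below the median of their width, by -0.46 to -0.68. The highest region away from the start was past the gene, at +37.5 kb (chr15:54240476-54241415, 940 bp), with 3.62 and 15.6% of the summed CPM.

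The growth factor gene Csf1 (ENSMUSG00000014599.10) lies at chr3:107741048-107760469. A region of 1053 bp (chr3:107759752-107760804) covered its start, its coding exon 1 and part of intron 1 at a level of 5.09. That was higher than at 48.1% of genes with a covered start and 0.73 above the median of its width. The CpG ratio around the start was 0.62, and 79.1% of the 2265 genes with a like ratio had a covered start. Inside the gene there were 4 more regions, in intron 2 at +4.2 kb (2.11), in intron 3 at +5.6 kb (1.55), over the coding exon 6 at +11.6 kb (2.07), and at +16.9 kb (4.53). The last (chr3:107743063-107744151) lay over intron 8 and the non-coding part of exon 9, near the end of the gene.

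Accessible regions continued past the end of Csf1. There were 7 from +19.7 to +37.3 kb, with 12.0% of the summed CPM. The first of them, at +19.7 kb (chr3:107740601-107740982), had 3.24 in 382 bp, which was 1.51 above the median of its width and higher than 97.6% of such regions. It was followed by +20.6 kb (4.40), +22.5 kb (2.54) and +23.7 kb (1.56), which stood 0.99, 1.07 and 0.88 above theirs. The last 3, from +27.8 to +37.3 kb, ranged from 1.56 to 2.14.

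Upstream of Csf1 there were 30 regions, with 71.5% of the summed CPM. The first 10, out to 50 kb, were all nearest to Csf1. Among them were -15.3 kb (4.36, 1708 bp, chr3:107774916-107776623), -33.1 kb (3.99) and -36.4 kb (3.56), and the weakest member of all 78, at -30.8 kb with 0.10. The interval from 50 to 100 kb upstream had 9 regions and 30.9% of the summed CPM, the largest share at the locus. It held the highest member of all, the -68.7 kb region (chr3:107828166-107830138, 1973 bp) at 5.63, which overlaps an exon of the lincRNA gene Gm36211 and carried 5 HRE cores, 2 AP-1, 3 RUNX and 2 TEAD matches. Its level was 0.11 above the median of its class of width but at -0.15 from that of regions within 10% of its width, so it was not set apart from regions as wide. Of these 9 regions only 1, at -55.8 kb (1.26), was nearest to Csf1, and the other 8 were nearest to Eps8l3, an EPS8-like adaptor gene. Farther out, the 11 regions more than 100 kb upstream were nearest to Eps8l3 or to the glutathione transferase genes Gstm5, Gstm6 and Gstm7, with levels of 0.69 to 4.35. In all, 22 of 42 regions were nearest to Csf1 (52.4%, 95% Wilson interval 37.7 to 66.6), against 17 of 25 at Tnfsf11 (68.0%, 48.4 to 82.8) and 8 of 11 at Tnfrsf11b (72.7%, 43.4 to 90.3). Only protein-coding genes were counted here, and with the starts of all genes the shares were 33.3% at Csf1, 28.0% at Tnfsf11 and 54.5% at Tnfrsf11b. The intervals for protein-coding genes overlap and cover counting error only.

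By place, 7 of the 78 members (8.97%) lay within 1000 bp of an annotated transcript start, against 22.7% of the list. Of those 7, 3 belonged to the genes themselves, 1 each to Eps8l3, Gstm5 and Gstm7, and 1, at -193.3 kb from Csf1, to the pseudogene Gm12494. A further 6 overlapped exons, 12 introns and 53 lay between genes. The 71 outside promoters had a median level of 2.13, against 1.89 in the same class of the whole list, and a median width of 480 bp against 408 bp. Relative to regions of like width their median was -0.12, against -0.05 in that class, so the higher level did not hold once width was matched.

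Transcription factor motifs were counted in the central 200 bp, since every listed region is at least that wide. RUNX (TGTGGT), the motif of the osteoblast regulator Runx2 and its relatives, was found in 26 of 78 members (33.3%, 95% Wilson interval 23.9 to 44.4), against 22.2% of the whole list. Tnfsf11 had 8 of these, Tnfrsf11b 4 and Csf1 14. C/EBP (TTGCNNAA, N being any base) was found in 13 members (16.7%, 10.0 to 26.5) against 9.79%, and AP-1 (TGACTCA or TGAGTCA) in 13 members (16.7%, 10.0 to 26.5) against 12.1%. The HRE core (ACGTG or GCGTG), to which HIF binds, was found in 12 (15.4%, 9.03 to 25.0) against 24.2%. Over whole regions the members had 1.11 HRE cores per kb against 1.72 in the list, and 1.29 RUNX matches per kb against 1.06, so the single regions with several HRE cores described above were picked out by their counts. Outside promoters the HRE core was in 15.5% of members against 19.8%, RUNX in 33.8% against 24.9% and C/EBP in 18.3% against 10.9%. Over whole regions C/EBP was in 26.9% of members against 23.4%. In matches per kb it did not stand above the list, with 0.458 in members against 0.482. No test was made of these shares, and the members were neighbours at only 3 loci.

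The other motifs were near the share of the list in the central 200 bp, or rare. TEAD (GGAATG) was in 12 members (15.4%) against 14.0% (44.9% against 31.5% over whole regions), TCF/LEF (CTTTGAA or CTTTGAT or CTTTGTA or CTTTGTT) in 9 (11.5%) against 13.0%, STAT (TTCCNGGAA) in 1 (1.28%) against 0.941%, NF-kB in 2 (2.56%) against 3.50%, and CTCF in 1 (1.28%) against 3.42%. The core of the cAMP response element (CRE, TGACGT) was in no member against 2.65%, the DR3 repeat bound by VDR/RXR in none against 0.226%, and the glucocorticoid receptor (GR) motif in none against 0.188%. With 78 members, 0 matches left an upper Wilson bound of 4.69%. Over whole regions the CRE core was found in 4 members, among them +10.5 kb and -151.1 kb at Tnfsf11, and NF-kB in 6 members, all at Csf1. A search for exact letters misses weaker forms of a motif.

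**Figure D4:**
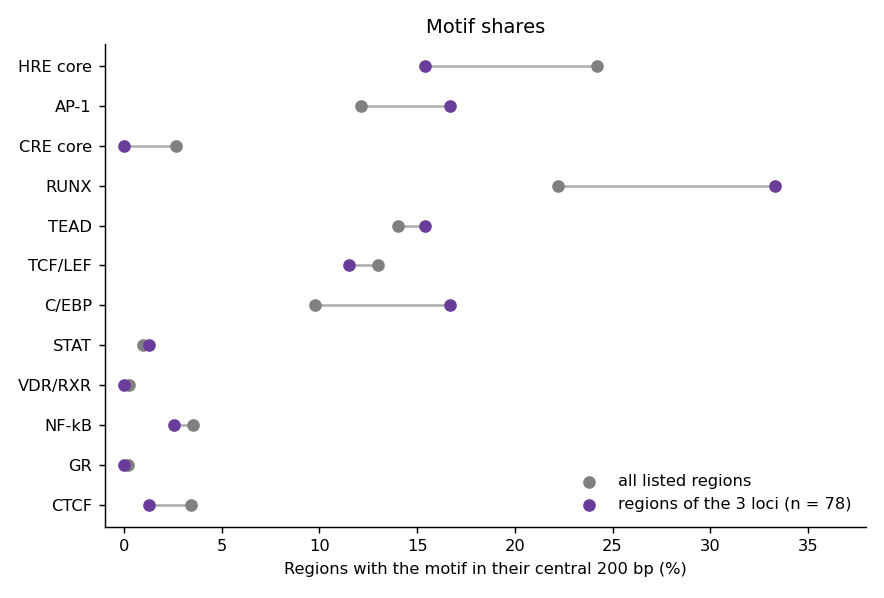
Percent of regions (x axis) with each of 12 motifs (y axis) in the central 200 bp, in purple for the 78 members and in grey for all 94963 listed regions. RUNX (33.3% against 22.2%) and C/EBP (16.7% against 9.79%) lie to the right of the list in this window, and the HRE core (15.4% against 24.2%) lies to the left.

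Promoters of the wider pathway were read from lists of genes that act with these 3. A region within 1000 bp of a start was found for 33 of 34 pathway genes, against 64.1% of protein-coding genes, and the median level was 5.09 against 5.03. All 13 other signals by which mesenchymal cells act on osteoclasts had one, from 3.13 at Il34, which encodes the alternative ligand of the M-CSF receptor, to 5.91 at Efnb2, an ephrin, with a median of 4.38. Wnt5a (4.99), Il6 (4.35) and Cxcl12 (5.38) were among them. By the outermost start of each gene alone, 10 of the 13 signals had a region, and Il34 did not. The 3 enzymes that shed membrane-bound RANKL or related proteins, Mmp14 (4.89), Adam10 (5.91) and Adam17 (6.21), each had one.

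Receptors and adaptors of the 3 products spread widely. Tnfrsf11a, the RANK gene, had a promoter region of only 1.92, Csf1r, the M-CSF receptor gene, had 2.69 with nothing within 500 bp of a start, and Tyrobp, an adaptor of the osteoclast lineage, had none. Lgr4 (6.07), which also binds RANKL, Traf6 (5.24), the adaptor of RANK and other receptors, and Sdc1 (5.99) had higher levels. All 12 receptors and transcription factors known to act upstream of Tnfsf11 had a promoter region, from 4.37 at Il1r1 to 7.30 at Nr3c1, the glucocorticoid receptor. Vdr had 5.61, Pth1r 5.35, Runx2 5.05 and Stat3 6.35. At Vdr, Pth1r and Nr3c1 the region lay at an inner transcript start, and with the outermost start of each gene alone 9 of these 12 and 26 of the 34 pathway genes had one, against 59.1% of protein-coding genes by the same count. The nearest region to the Tnfsf11 start, at 1.94, was below all 12.

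**Figure D5:**
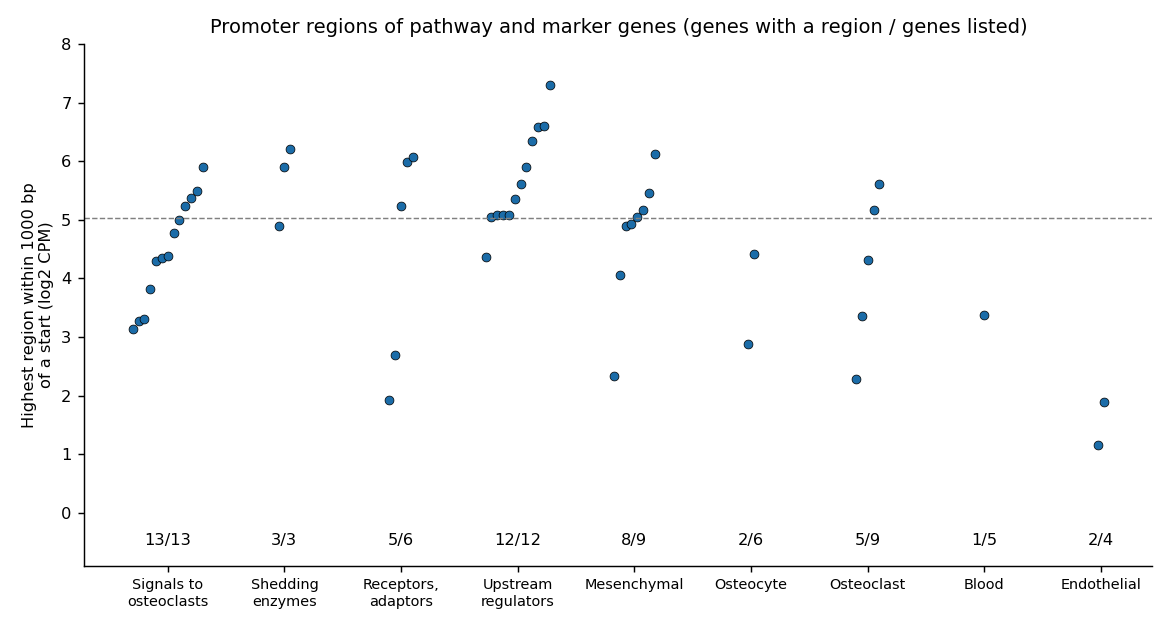
Level of the promoter region (log2 CPM) of each gene in the pathway and marker lists, where a point is 1 gene with a region within 1000 bp of a start and the dashed line is the median of 5.03 over all protein-coding genes. The 12 upstream regulators range from 4.37 to 7.30, and the receptors Tnfrsf11a (1.92) and Csf1r (2.69) lie well below them.

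The labelled cell type was checked in the same way. Of the mesenchymal and osteoblast markers 8 of 9 had a promoter region, all but Postn, among them Runx2, Sp7 (4.06), Col1a1 (4.93) and Twist1 (6.13), and the lowest was Alpl (2.33). Of the osteocyte markers 2 of 6 did, Dmp1 (4.41) and Fgf23 (2.89), and Phex, Mepe, Sost and Pdpn had none. Of the osteoclast markers 5 of 9 did, Nfatc1 (5.61), Itgb3 (5.17), Oscar (4.32), Ctsk (3.36) and Atp6v0d2 (2.28), where 64.1% of all protein-coding genes did, and Acp5, Calcr, Dcstamp and Ocstamp had none. Of 5 blood markers 1 did, Spi1 (3.38), with none at Ptprc, and endothelial markers had 2 of 4, Pecam1 (1.89) and Kdr (1.16). A region in the pooled list may come from MSCs, osteocytes or both, and these cannot be told apart.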

How the data were processed

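ATAC-seq of 11 MPC2 cultures was used. Per the methods, the authors trimmed reads with Trim Galore, aligned them to mm10 with Bowtie2, removed duplicates with Picard (2.17.8) and discarded mitochondrial and poorly mapped reads. Peaks were called with MACS2 (2.2.7.1), merged and freed of ENCODE blacklist regions, cuts were counted with pyDNase, regions with few cuts were dropped, and TMM and edgeR (3.24.3) were applied by the authors. Whether cut positions were corrected for the Tn5 offset was not given in the sources used here. A library that the authors removed (1 in all) was not analysed here. Versions are as the submitters' processing notes give them.

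The deposited list has 1 file with 1 value per region, read as the average log2 CPM of the authors. That unit was inferred, because 460 values lie below 0 and 2 to the power of the values sums to 1012761. The depth of each culture is unknown, and cultures were grouped by their labels but were not compared, since the list has no value per culture. Merged peaks are as wide as all peaks under them, so width and level depend on all cultures together. The order of the rows and the study's tables of differences were not used.

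Gene bounds, exons and transcript starts came from GENCODE vM21 and sequence from GRCm38, the assembly of mm10. A region was assigned by 1 bp of overlap, its distance was taken from its middle to the gene's outermost start, and its class was promoter (within 1000 bp of any transcript start), exon, intron or intergenic, in that order. Intervals are Wilson intervals at 95% and cover counting error only. Named regions were those within 1000 bp of a start of the gene or over its body, the 5 highest others nearest to it, and the highest of each upstream interval of Tnfsf11. Others were named as members of an interval or for a value that stood out, after their values were seen. Printed distal sequences are the 300 bases of the region with the most motif matches, counting matches at least 10 bases from either end of the stretch. They come from the highest distal region of each locus and from the highest at Tnfsf11 between 50 and 100 kb, the last chosen after its level was seen. Of the marker lists, 1 gene is not reported here. Members, lists and rules were chosen with earlier results of these data known. Overlap, nearest-start and motif searches were tested on simulated data. The alternatives were other upstream distances, widths, levels, joining, midpoints, starts, gene sets and motif windows. Python 3.11.15 was used with numpy 2.4.6, pandas 2.3.3, scipy 1.17.1 and matplotlib 3.10.9.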

Additional observations from a re-analysis of the deposited data

How the results depend on the processing

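No paired analysis was possible because levels were pooled over all cultures, and no replicate could be left out. Of 102 values recomputed, 58 stayed within the margin (1.5 times for a count, otherwise an interval around the value reported) and 44 moved past it. For some of the 44 the margin could not decide. Differences from like width were set against an interval for raw levels. Percentiles were held to an interval over 21938 genes, so narrow that 98.2 to 98.4 counted as moved. The rank of Tnfsf11 among genes without a covered start was counted as moved with no margin applied. An upstream distance of 20 kb left 9 regions at Tnfsf11, 6 at Tnfrsf11b and 17 at Csf1. Regions at least 500 bp wide numbered 12, 6 and 18, and regions of at least 2 log2 CPM numbered 12, 6 and 26, fewer by construction. Ending the Csf1 stretch midway to the next start left 23. The percent of genes with fewer regions (77.2, 35.5 and 98.2 for Tnfsf11, Tnfrsf11b and Csf1) became 81.2, 45.7 and 98.4 with 100 kb upstream, 73.1, 40.7 and 92.4 with regions at least 500 bp wide, 85.6, 21.8 and 99.0 among genes of the same chromosome, and 87.3, 50.1 and 98.0 among genes with a like number of starts. Tnfrsf11b alone moved from one side of the middle to the other. The cause was not tested.

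Median level rose to 3.59 at Tnfsf11 and 4.01 at Csf1 in regions at least 500 bp wide. Relative to like width it was -0.24, -0.15 and 0.14, and relative to regions within 10% of the width, an alternative chosen after seeing the data, -0.23, -0.18 and 0.20, with the sign kept at each locus. With starts of all genes, the share of regions nearest to the gene itself fell to 28.0% at Tnfsf11 and 33.3% at Csf1, because noncoding genes then count as neighbours. With 100 kb upstream it rose to 100% and 71.0%. With the outermost start of each protein-coding gene, also chosen after seeing the data, it was 72.0% at Tnfsf11 and as before at the other 2. Over whole regions, members with a motif came to 42.3% (HRE core, 46.2% of the list), 30.8% (AP-1, 22.1%), 5.13% (CRE core, 7.75%), 53.8% (RUNX, 42.7%), 44.9% (TEAD, 31.5%), 32.1% (TCF/LEF, 31.6%) and 26.9% (C/EBP, 23.4%), since more bases are searched. In members at least 500 bp wide the HRE core was at 8.33% (28.4% of the list), CTCF at 0% (1.24%), C/EBP at 11.1% (9.43%) and AP-1 at 11.1% (9.71%). Distal regions nearest to Tnfsf11 exceeded 99.3% of genes without a covered start, also chosen after seeing the data, against 96.9% of all genes. Depth per culture was unknown, so a start without a listed region, as at Tnfsf11, says only that none is in the merged list after the authors' filters.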
